A study of Mus musculus with 8 samples.

Results

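The mRNAs described here encode 10 chaperones and folding enzymes of the endoplasmic reticulum (ER), namely Hspa5, Hyou1, Hsp90b1, Calr, Canx, P4hb, Pdia3, Pdia4, Pdia6 and Ppib. Their choice was by gene symbol, with no measured value in the rule, but with earlier results of these data known. They make up 10 of the 13120 genes with reads and 4629 of the 1926118 mRNA reads kept. The reads came from nanopore direct RNA sequencing, in which a native poly(A) RNA molecule passes through a pore and gives 1 read and 1 poly(A) tail length. The cells were P19, a wild-type mouse embryonal carcinoma line, kept undifferentiated. They received 10 µM MHY1485 (MHY), a compound used as an activator of the mTOR kinase, or the same amount of its solvent DMSO, for 24 h or 48 h, with medium and compound renewed every 24 h. Each of the 4 groups (DMSO 24 h, MHY 24 h, DMSO 48 h, MHY 48 h) held 2 libraries, and only 1 cell line was used. A library here means the reads of 1 barcoded sample, a biological replicate by the study's methods, pooled over its sequencing runs. Libraries are called by the numbers of the deposited table, 21 and 23 at 24 h and 24 and 25 at 48 h, which are names and not hours. The design compares mRNA tails with and without MHY, and for the chaperones both their reads and their tails were compared.

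Secreted and membrane proteins enter the ER unfolded, and the chaperones of its lumen hold them until they reach their native shape. Hspa5 (BiP) is the Hsp70 of the ER and Hyou1 (Grp170) its large relative and nucleotide exchange factor, while Hsp90b1 (Grp94) is the Hsp90 of the ER. Calr and Canx are lectins that bind nascent glycoproteins, in soluble and membrane-bound form. P4hb, Pdia3, Pdia4 and Pdia6 are protein disulphide isomerases, of which Pdia3 works with Calr and Canx, and P4hb is also a subunit of prolyl 4-hydroxylase. Ppib is a cyclophilin that isomerises prolines. Misfolded protein in the ER starts the unfolded protein response, whose factor ATF6 binds the ER stress response element, a CCAAT box and a CCACG box with a fixed spacing, in many of these promoters. mTOR raises protein synthesis and with it the load of the ER.

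The ER stress response element is shown first, since it is the sequence by which several of these genes are known to be co-regulated. It was searched as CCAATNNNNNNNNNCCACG on both strands in RefSeq promoter windows of GRCm38.p6, from 250 bases before to 50 after each gene's start. Of the 10 genes, 9 had a window (Hyou1 had none), and 5 of these 9 held the element. Among all promoter windows, 39 of 32851 (0.119%) held it, and among all genes with a window 37 of 27025 (0.137%). In the gene lists compared below it was held by 3 of 21 genes of the unfolded protein response (14.3%). It was also held by 1 of 12 genes of ER-associated degradation (8.33%) and 1 of 23 other ER folding enzymes (4.35%). None was found in the 3 other lists (0 of 16, 0 of 9 and 0 of 16). The capitals mark both boxes, and each line is written in the direction in which CCAAT comes first.
Hspa5: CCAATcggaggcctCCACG
Calr: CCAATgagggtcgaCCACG
Hsp90b1, distal: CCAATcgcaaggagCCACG
Hsp90b1, proximal: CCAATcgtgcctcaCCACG
Canx: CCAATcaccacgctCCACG
Pdia6: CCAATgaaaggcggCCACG

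The element of Hspa5 lay at chr2:34772025-34772043 (plus strand of the genome), 47 to 65 bases upstream of the RefSeq start. All distances here are counted from RefSeq starts. The starts of the GENCODE transcripts used for the reads below can differ. The longer Hspa5 transcript there starts at chr2:34771970, upstream of the element, and that of Hsp90b1 at chr10:86705509. That of Calr lay at chr8:84847075-84847093 (plus strand), 144 to 162 bases upstream. Hsp90b1 held an element at chr10:86705638-86705656 (minus strand), 194 to 212 bases upstream, and another at chr10:86705533-86705551 (plus strand), 89 to 107 bases upstream. The element of Canx was at chr11:50325800-50325818 (minus strand), 127 to 145 bases upstream, and that of Pdia6 at chr12:17266491-17266509 (plus strand), 80 to 98 bases upstream. In Calr, and in the proximal copy of Hsp90b1, the element ran against the direction of the gene. No match was found in the windows of P4hb, Pdia3, Pdia4 and Ppib. The P4hb window (chr11:120573204-120573503, minus strand) did not reach its leading read start at chr11:120572860. The bases just before that read start were thus not searched. A match is a match of letters and not a measured binding site.

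The libraries held 178369 to 316546 mRNA reads, of which the 10 genes took 373 to 834. Levels are given as reads per 1000000 mRNA reads of the library (RPM), not divided by gene length, since a molecule gives 1 read of whatever length. Markers of undifferentiated embryonal carcinoma were the most read, with 9 of 10 pluripotency genes read (3300 to 3797 summed RPM, Zfp42 at 0). Most of these reads were of Pou5f1 (5098 reads). Of the neuronal markers 8 of 12 had reads (219.5 to 404 summed RPM, with Dcx and Rbfox3 among those at 0), of the endodermal 5 of 8 (4.68 to 10.9, with Sox17, Afp and Sox7 at 0) and of the mesodermal 6 of 6 (28.03 to 309.6). Most neuronal reads were of Stmn2 (455 reads, 37 to 77 per library, against 278 for the pluripotency gene Sox2) and Tubb3 (94). Most mesodermal reads were of T (166) and Eomes (93). The neuronal sum averaged 315 RPM under DMSO and 339.6 under MHY at 24 h, while at 48 h these means were 309 and 233. The mesodermal sum averaged 87.6 under DMSO and 42.9 under MHY at 24 h, with means of 213 and 176 at 48 h. The part of either in the results below was not tested. Library 24 of MHY 48 h stood apart, with a median tail over all mRNA reads of 92.4 nt and 4.46% of reads with tails under 30 nt, against 96.8 to 102.5 nt and 2.17% to 3.38% in the others. The counts of replicates differed by more than sampling noise (chi-square per degree of freedom of 1.17 for DMSO 24 h, 1.12 for MHY 24 h, 1.25 for DMSO 48 h and 1.41 for MHY 48 h).

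Of the 10 genes, 8 were abundant and 2 scarce. Mean levels over the 8 libraries were 339 ± 42.2 RPM for Ppib (SD, n = 8), 326 ± 57.0 for Calr, 324 ± 58.2 for P4hb and 324 ± 43.9 for Hspa5. They were 269 ± 35.6 for Pdia3, 254 ± 36.7 for Hsp90b1, 247 ± 32.1 for Canx and 237 ± 52.6 for Pdia6. Neighbours in this order of levels lay closer together than their spread between libraries, apart from the steps from Hspa5 to Pdia3 and from Pdia6 to Pdia4. Pdia4, with 43.3 ± 11.1 RPM, and Hyou1, with 37.2 ± 14.6, were read 8 to 12 and 3 to 13 times per library, so that only large differences were detectable for them. Fewer molecules per cell and fewer cells with the mRNA cannot be told apart in these bulk libraries.

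**Figure D1:**
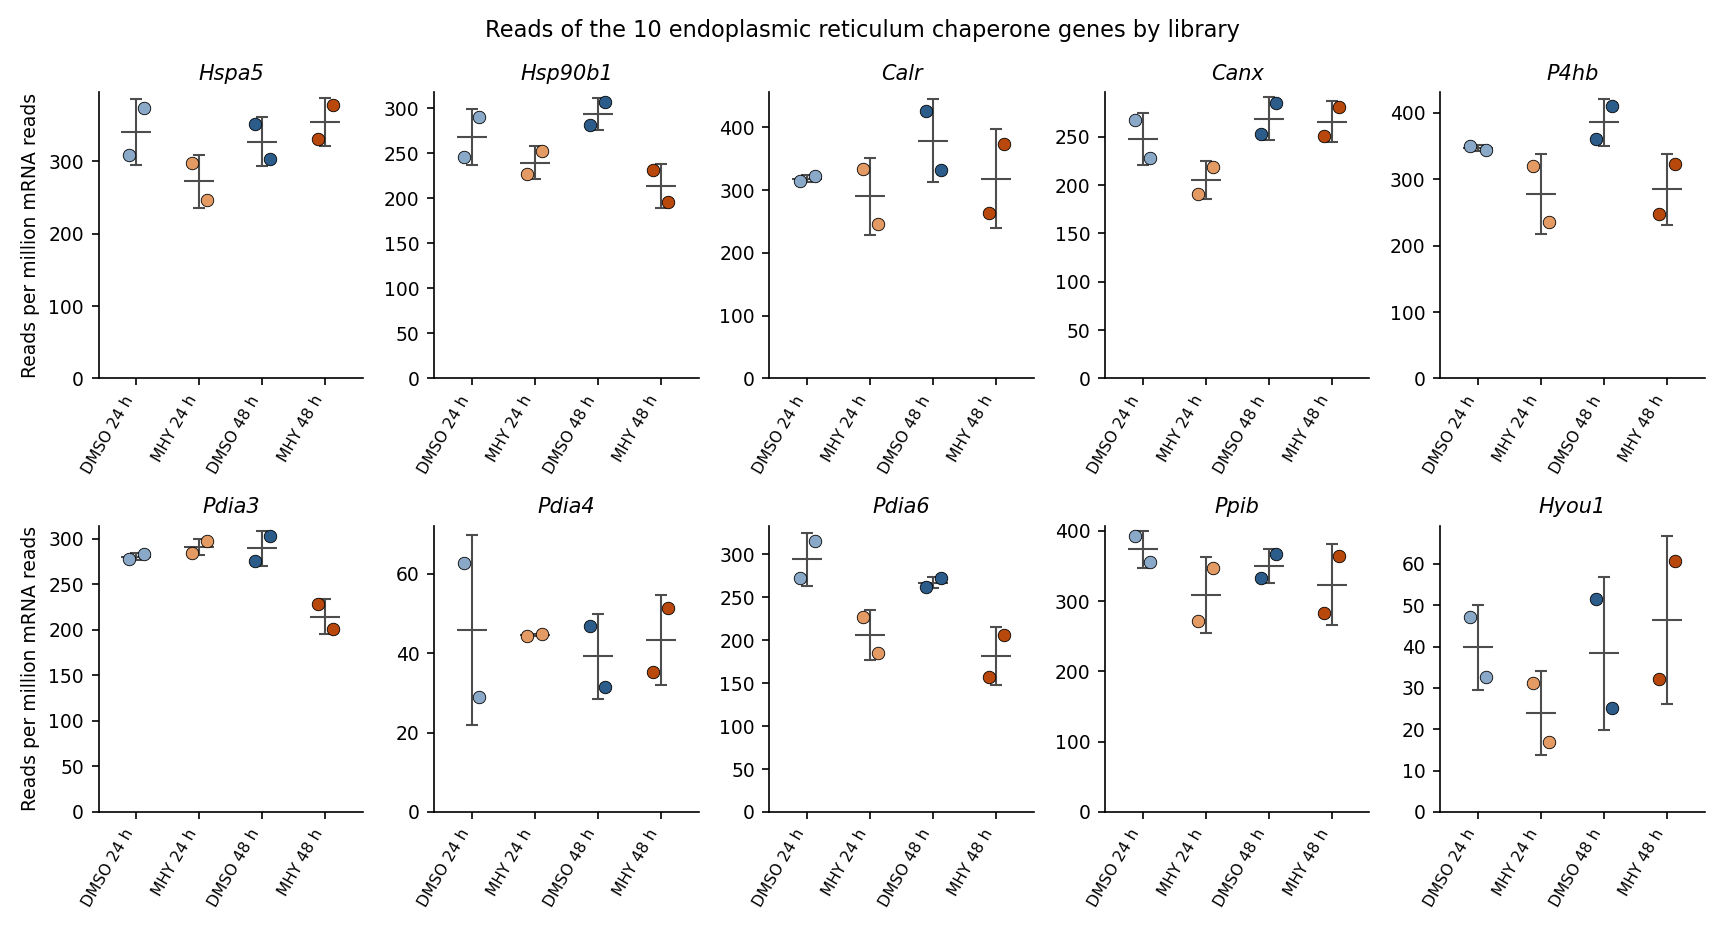
RPM (reads per 1000000 mRNA reads) (vertical axes, from 0) of the 10 ER chaperone genes in each of the 8 libraries. Points are libraries and bars the mean ± SD of the 2 libraries of a group. For Pdia6 both MHY libraries lie below both DMSO libraries at 24 h and at 48 h, and for Pdia3 at 48 h but not at 24 h.

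At 24 h of MHY the chaperone mRNAs were mostly, but not significantly, less abundant. Summed over the 10 genes, the DMSO libraries held 2539 and 2574 RPM and the MHY libraries 2227 and 2091. Both MHY libraries were thus below both DMSO libraries. In the fit across all genes (limma voom, reads scaled by median-of-ratios size factors), 8 of the 10 genes had a log2 difference below 0, and the median was -0.31 against -0.02 over all 4116 genes tested. None of the 10 passed an adjusted p of 0.05 (Benjamini-Hochberg over all genes), in a comparison where 2 genes did (0.0486%). At an unadjusted p under 0.05 there was 1 of the 10 (Pdia6) against 4.47% of all genes. The groups were separate, with MHY the lower, for 6 of the 10, a pattern seen in 16.6% of all genes.

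Pdia6, a disulphide isomerase, differed most among the abundant genes at 24 h. Its libraries held 272 and 315 RPM under DMSO and 227 and 185 under MHY. The groups did not overlap, and the log2 difference was -0.54 ± 0.22 (SE, limma voom, adjusted p = 0.958). Hspa5, the ER Hsp70, had 309 and 373 RPM under DMSO and 298 and 247 under MHY, likewise without overlap (log2 difference -0.36 ± 0.21). P4hb had 351 and 344 under DMSO and 320.04 and 235 under MHY (-0.34 ± 0.20). For Ppib the values were 393 and 355 under DMSO and 271 and 348 under MHY (-0.32 ± 0.20), and for Canx 267 and 228 under DMSO and 191 and 219 under MHY (-0.29 ± 0.23). In these 4 genes the gap between the groups was smaller than the spread within at least 1 of them. Their adjusted p was between 0.958 and 0.984. Single libraries moved these values. Without library 21 of MHY they were -0.56 for P4hb, -0.48 for Hspa5, -0.10 for Ppib and -0.16 for Canx, and without library 23 of MHY -0.17, -0.26, -0.51 and -0.41. Without library 23 of DMSO Hspa5 was at -0.22. Hyou1 made up the sixth gene without overlap, from 9 and 9 reads under DMSO and 7 and 3 under MHY. Pdia3 alone lay higher in both MHY libraries, at 284 and 297 RPM against 277 and 283 under DMSO, a log2 difference of 0.02 ± 0.21.

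At 48 h Pdia6, P4hb, Hsp90b1 and Pdia3 had the lowest log2 differences of the 10 genes, from -0.72 to -0.54, while that of the fourth disulphide isomerase, Pdia4, was 0.02. Pdia6 and P4hb came within a narrow margin of the threshold without passing it. The 10 genes summed to 2640 and 2635 RPM under DMSO and to 2057 and 2434 under MHY. The log2 difference was below 0 for 7 of the 10, with a median of -0.33 against -0.02 over all genes tested. None of the 10 passed the adjusted p, which 71 of 4116 genes did (1.72%, 17 higher and 54 lower). Scaling by total reads, on which RPM rests, raised the median over all genes by 0.12 on the log2 scale and turned this split to 32 higher and 28 lower, so that differences at 48 h are to be read against that shift. At an unadjusted p under 0.05 there were 5 of the 10, all lower, against 12.3% of all genes. The groups were separate, with MHY the lower, for 4 of the 10 (Hsp90b1, P4hb, Pdia3 and Pdia6), against 14.4% of all genes.

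Pdia6 had 262 and 272 RPM under DMSO and 157 and 206 under MHY at 48 h. Its groups did not overlap, and the log2 difference was -0.72 ± 0.22 (SE, limma voom, adjusted p = 0.0508), the 72nd smallest p of the 4116 genes. P4hb had 360.4 and 411 under DMSO and 247 and 322 under MHY, with a log2 difference of -0.60 ± 0.19 (adjusted p = 0.0606). In both genes library 25 of MHY also lay below both DMSO libraries, but the size of the difference depended on library 24 of MHY. Without it the log2 difference was -0.44 for Pdia6 (adjusted p = 0.811) and -0.33 for P4hb (adjusted p = 0.823), and without library 25 of MHY it was -0.91 (adjusted p = 0.0150) and -0.80 (adjusted p = 0.0113). With total reads as the scale the values were -0.60 (adjusted p = 0.149) and -0.48 (adjusted p = 0.191). The median over the 10 genes was -0.03 without library 24 of MHY.

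Pdia3, the isomerase that works with the lectins, had 276 and 303 RPM under DMSO and 228 and 201 under MHY at 48 h. The log2 difference was -0.54 ± 0.21 (limma voom, adjusted p = 0.182), and it was -0.59 without library 24 of MHY. Hsp90b1 had 281 and 306 under DMSO and 231 and 196 under MHY (-0.56 ± 0.20, adjusted p = 0.151), and -0.65 without that library. Both genes were lower in library 25 than in library 24, in contrast to Pdia6 and P4hb. Calr had 426 and 332 under DMSO and 263 and 374 under MHY (-0.39 ± 0.18, adjusted p = 0.346), with overlapping groups. It was -0.05 without library 24 of MHY, -0.25 without library 24 of DMSO, -0.64 without library 25 of MHY and -0.56 without library 25 of DMSO.

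Hspa5 had overlapping groups and a difference near 0 at 48 h, and contrasts between genes were not tested. It had 351 and 303 RPM under DMSO and 331 and 378 under MHY, a log2 difference of 0.00 ± 0.18, and 0.12 with total reads as the scale. Canx, with 253 and 284 under DMSO and 250.4 and 280.3 under MHY, overlapped likewise (-0.16 ± 0.20). Ppib had 332 and 366 under DMSO and 282 and 364 under MHY (-0.27 ± 0.18). Without library 24 of MHY the values were 0.16 for Hspa5, -0.01 for Canx and -0.01 for Ppib, and without library 25 of MHY -0.12, -0.26 and -0.46. Pdia4 and Hyou1, with 10 and 10 and 11 and 8 reads under DMSO and 11 and 11 and 10 and 13 under MHY, had log2 differences of 0.02 ± 0.45 and 0.17 ± 0.45. At these errors neither direction can be told for either gene.

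**Figure D2:**
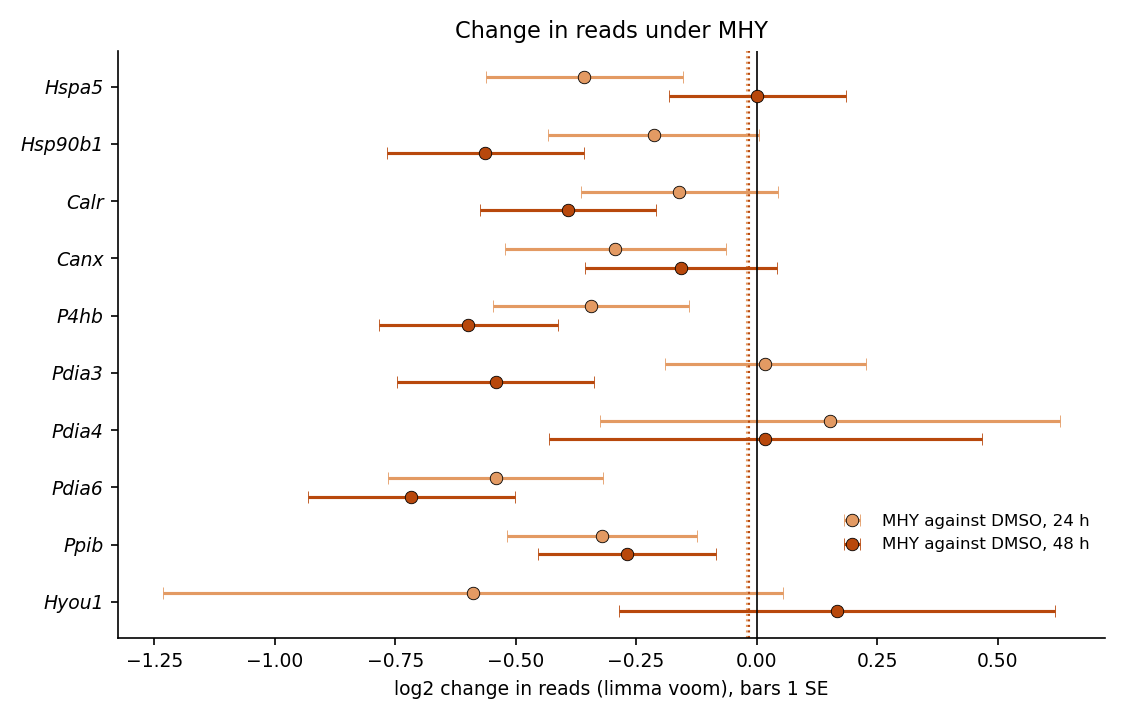
Log2 difference in reads between MHY and DMSO (horizontal axis) of the 10 genes at 24 h and at 48 h, with bars of 1 SE from limma voom and n = 2 libraries per group. Dotted lines mark the median over all 4116 genes tested (-0.02 at both times). Points for Pdia6 and P4hb lie left of 0 at both times, and that of Hspa5 at 48 h lies on it.

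The genes with and without the ER stress response element overlapped in their differences. P4hb counts as without it by the window of its annotated start, which left out the bases just before its leading read start. At 24 h the log2 difference was below 0 for 5 of 5 genes with the element (median -0.29) and for 2 of 4 without (median -0.15). At 48 h it was below 0 for 4 of 5 with it (median -0.39, from -0.72 for Pdia6 to 0.00 for Hspa5) and for 3 of 4 without (median -0.41, from -0.60 for P4hb to 0.02 for Pdia4).

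The interaction of treatment and time, or how far the MHY effect at 48 h departed from that at 24 h, passed the adjusted p for none of the 10 genes and for 14 of all genes (0.34%). None of the 10 had an unadjusted p under 0.05, against 6.63% of all genes. It was largest among the abundant genes for Pdia3 (-0.56 ± 0.29, limma voom, adjusted p = 0.774), whose libraries lay above DMSO at 24 h and below it at 48 h. Hspa5 (0.36 ± 0.28, adjusted p = 0.884) and Hsp90b1 (-0.35 ± 0.30, adjusted p = 0.905) followed, and the value of Hspa5 ran from 0.22 to 0.52 over the alternatives. Between the DMSO groups of 48 h and 24 h none of the 10 was called, as none of all genes was (0%). None of the 10 had an unadjusted p under 0.05 there, against 4.25% of all genes. No sequencing run held both times, so that time and run cannot be told apart.

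Every run held both treatments, so MHY and DMSO could be set side by side within it. Summed over the 10 genes, the log2 ratio of MHY to DMSO was -0.30, -0.29 and -0.06 in the 3 runs of 24 h, and -0.16 and -0.32 in the 2 runs of 48 h. At 24 h the levels of Hspa5, Hsp90b1, Calr and Ppib were lower under MHY in 3 of 3 runs, those of Pdia6, P4hb, Canx and Hyou1 in 2, and those of Pdia3 and Pdia4 in 1. In the third run the log2 ratio was 0.00 for Pdia6 and 0.12 for P4hb. At 48 h Hsp90b1, Calr, P4hb, Pdia3 and Pdia6 were lower in 2 of 2 runs, Canx, Ppib, Pdia4 and Hyou1 in 1, and Hspa5 in 0. The log2 ratio of Calr was only -0.003 in 1 of these runs and -0.42 in the other. Runs hold reads of the same biological replicates and are not replicates themselves.

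No gene of the other lists of the secretory pathway was called either. Of 25 regulators and targets of the unfolded protein response, 10 had enough reads to test, and 0 were called at either time. Their median log2 difference was 0.10 at 24 h and 0.28 at 48 h, beside -0.02 over all genes at both times. At 48 h, 3 of the 10 were higher and 1 lower at an unadjusted p under 0.05, which 12.3% of all genes passed (208 higher and 298 lower). Of 16 genes of ER-associated degradation, 11 were tested with 0 called, and the medians were -0.01 and 0.32. The 21 tested genes of the translocon and signal peptidase had medians of 0.03 and -0.14, the 9 of the oligosaccharyltransferase -0.01 and -0.14, and the 21 other ER folding enzymes -0.11 and 0.00, all with 0 called. Among 19 tested cytosolic and mitochondrial chaperones the medians were -0.15 and -0.08, and 1 was called, at 48 h. This was Hsp90ab1, the cytosolic Hsp90, with 2766 and 3241 RPM under DMSO and 2385 and 2415 under MHY (log2 difference -0.44 ± 0.11, limma voom, adjusted p = 0.00985). The uncalled difference of its ER relative Hsp90b1 was -0.56 ± 0.20, from fewer reads, and the contrast between both genes was not tested.

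The mRNAs differed from each other in tail length. At least 10 reads in each library were available for 8 genes, which could be compared (all but Pdia4 and Hyou1). The median tail, averaged over the 8 libraries, was 136 ± 5.15 nt for Canx (SD, n = 8), 117 ± 7.73 for Hsp90b1, 114 ± 5.60 for Pdia3, 102 ± 9.88 for Hspa5, 101.3 ± 6.85 for Pdia6, 96.6 ± 5.14 for Calr, 95.9 ± 8.43 for P4hb and 74.98 ± 9.04 for Ppib. For comparison, the median of the medians of all 1949 genes with that many reads was 99.4 nt. The pooled median of Canx (135 nt) was longer than that of 99.4% of these genes, and only 1.08% of them had a median shorter than that of Ppib (76.3 nt).

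Canx and Ppib stood at the ends of this order and apart from their neighbours. Canx was longer than Hsp90b1 in 8 of 8 libraries, by 19.9 ± 10.2 nt (SD, n = 8), and Ppib was shorter than P4hb in 7 of 8, by 20.9 ± 15.1 nt. Pdia3 was longer than Hspa5 in 8 of 8 libraries, by 12.3 ± 11.02 nt. The other neighbours lay within their spread, at 2.23 ± 10.4 nt between Hsp90b1 and Pdia3, 0.734 ± 9.20 nt between Hspa5 and Pdia6, 4.70 ± 5.83 nt between Pdia6 and Calr, and 0.679 ± 9.44 nt between Calr and P4hb. Pdia4 and Hyou1 had pooled medians of 127 nt and 123 nt from 80 and 70 reads. These are levels of tail length, given as a description.

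**Figure D3:**
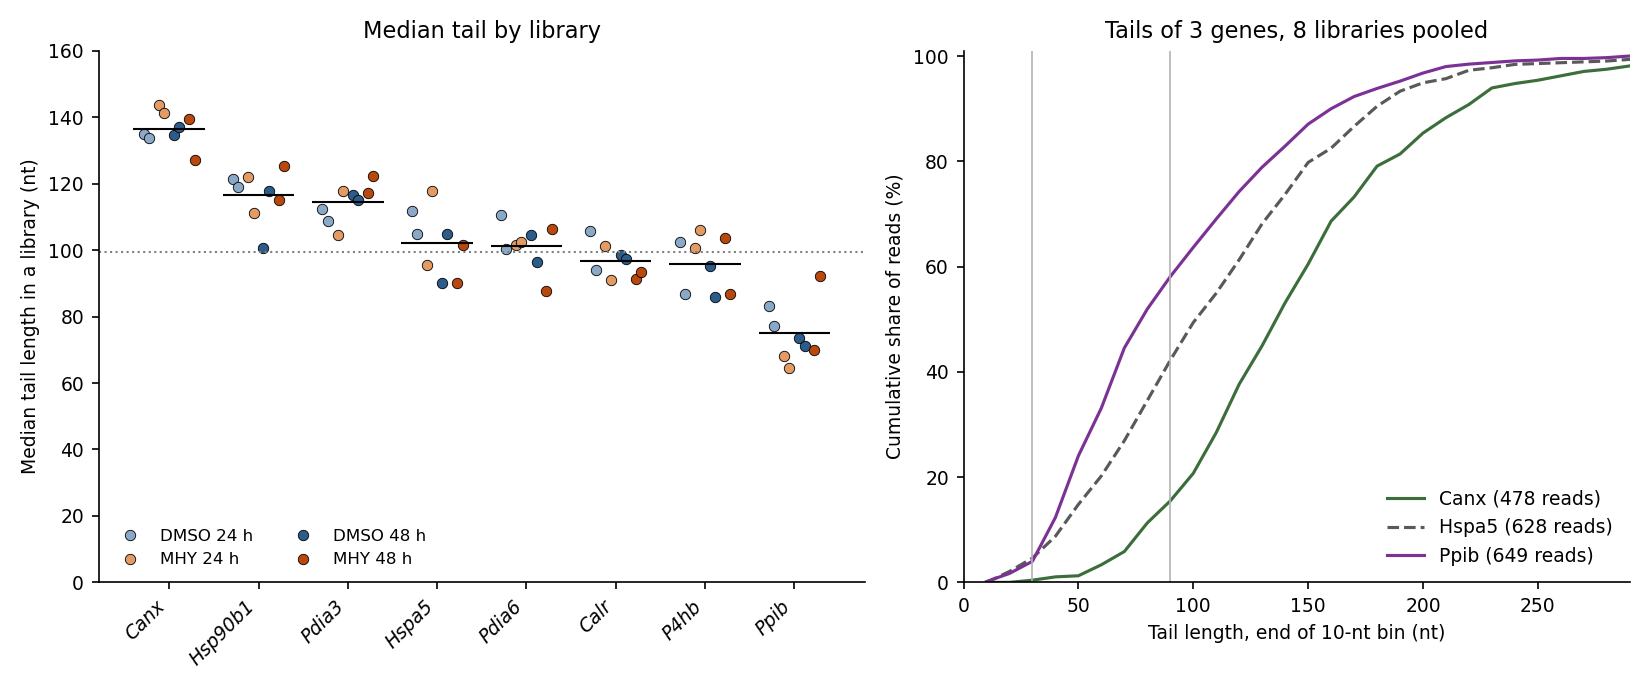
Left, median tail length (nt) of 8 genes in each of the 8 libraries (points, coloured by group), with the mean over libraries as a black line and the median over 1949 genes (99.4 nt) dotted. Right, cumulative share of reads (%) by tail length for Canx, Hspa5 and Ppib with all libraries pooled, and grey lines at 30 and 90 nt. The Canx curve lies to the right of that of Hspa5, and the Ppib curve to its left over most of the range between both grey lines.

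Most Canx molecules carried tails above 90 nt (84.5% of 478 reads), and 15.1% were between 30 and 90 nt, a class that the study set apart. Of the Ppib molecules 41.9% were above 90 nt and 54.1% between 30 and 90 nt, out of 649. The shares between 30 and 90 nt were 37.6% for Hspa5, 39.6% for Calr, 39.5% for Pdia6, 44.8% for P4hb, 31.0% for Hsp90b1 and 29.8% for Pdia3. Tails under 30 nt made up 2.92% of all mRNA reads. In the 10 genes they ranged from 0 of the 80 reads of Pdia4 and 0 of the 70 of Hyou1 to 4.79% of the reads of Calr, with 4.62% for Hspa5, 4.01% for Ppib and 3.71% for Pdia6.

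None of the 8 genes passed the test for a median tail different between MHY and DMSO, at either time (limma on log2 median tails, weighted by reads). At 24 h 0 of 8 were called, as were 0 of all genes (0%), and 0 of 8 had an unadjusted p under 0.05, against 3.54% of all genes. At 48 h 0 of 8 were called, against 11 of 1949 genes (0.564%), all shorter, and 0 of 8 had an unadjusted p under 0.05, against 8.47%. The median log2 difference of the 8 genes was -0.02 at 24 h and 0.01 at 48 h, beside -0.01 and -0.04 over all genes. Groups were separate, with MHY the shorter, for 1 of 8 genes at 24 h (Ppib, 17.9% of all genes) and for 1 of 8 at 48 h (Calr, 21.8% of all genes).

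Ppib was the gene with the shorter tails in both MHY libraries at 24 h. Its median tail was 83.1 and 77.2 nt in the DMSO libraries of 24 h and 68.2 and 64.5 nt in those of MHY, so that the groups did not overlap (log2 difference -0.27 ± 0.13, limma, adjusted p = 0.999). After 48 h the DMSO libraries had medians of 73.5 and 71.0 nt and the MHY libraries 70.04 and 92.4 nt (0.15 ± 0.12, adjusted p = 0.804), with library 25 of MHY the highest of the 8. The interaction was 0.42 ± 0.18 (limma, adjusted p = 0.998), the 1 of 8 genes with an unadjusted p under 0.05, against 4.36% of all genes and 0% called. It was 0.23 without library 25 of MHY 48 h and 0.63 without library 24. Between the DMSO groups 0 of 8 genes were called (0% of all genes) and 0 of 8 had an unadjusted p under 0.05 (5.95% of all genes).

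Canx tails were 135 and 134 nt under DMSO and 144 and 141 nt under MHY at 24 h, and 135 and 137 nt under DMSO and 139 and 127 nt under MHY at 48 h. The groups did not overlap at 24 h and did at 48 h, with log2 differences of 0.09 ± 0.14 and -0.03 ± 0.11. Calr, whose groups were separate at 48 h, had 98.6 and 97.2 nt under DMSO and 91.5 and 93.4 nt under MHY (-0.08 ± 0.10, limma, adjusted p = 0.899).

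Tail classes were compared as log2 odds of the share of reads, with limma. For tails under 30 nt, 0 of 8 genes were called at 24 h (0% of all genes) and 0 of 8 at 48 h (0.359% of all genes, 7 genes, all higher). At an unadjusted p under 0.05 there was 1 of 8 at 24 h (Ppib, against 5.64% of all genes) and 1 of 8 at 48 h (Pdia6, against 10.6%). For tails of 30 to 90 nt, 0 of 8 were called at 24 h (0%) and 0 of 8 at 48 h (0.257%, 5 genes, all higher). At an unadjusted p under 0.05 there was 1 of 8 at 24 h (Canx, lower, against 4.87%) and 1 of 8 at 48 h (Ppib, lower, against 6.16%).

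Few reads stood behind the short tails. In Ppib at 24 h there were 1 of 75 and 0 of 98 under DMSO and 3 of 61 and 4 of 62 under MHY, a log2 odds difference of 2.88 ± 0.78 (limma, adjusted p = 0.669). In Pdia6 at 48 h there were 0 of 56 and 1 of 86 under DMSO and 3 of 49 and 4 of 44 under MHY (2.76 ± 0.66, adjusted p = 0.127). Over the 10 genes together, tails under 30 nt made up 1.24% and 2.39% under DMSO and 1.80% and 4.29% under MHY at 24 h, which overlapped. At 48 h they made up 3.37% and 2.28% under DMSO and 4.84% and 4.22% under MHY, which did not, in libraries where the share over all mRNAs was higher under MHY as well (2.87% and 2.57% against 4.46% and 3.38%).

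In the class of 30 to 90 nt, Ppib held 54.7% and 60.2% of its reads under DMSO and 59.02% and 56.5% under MHY at 24 h. At 48 h it held 57.7% and 56.03% under DMSO and 45.5% and 43.6% under MHY, without overlap (log2 odds difference -0.69 ± 0.32, limma, adjusted p = 0.735). Counting error alone gave both MHY shares 95% intervals (Wilson) of 35.5% to 55.8% and 33.1% to 54.6%. Canx at 24 h held 13.7% and 23.8% under DMSO and 16.3% and 5.13% under MHY (-0.997 ± 0.48, adjusted p = 0.979).

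**Figure D4:**
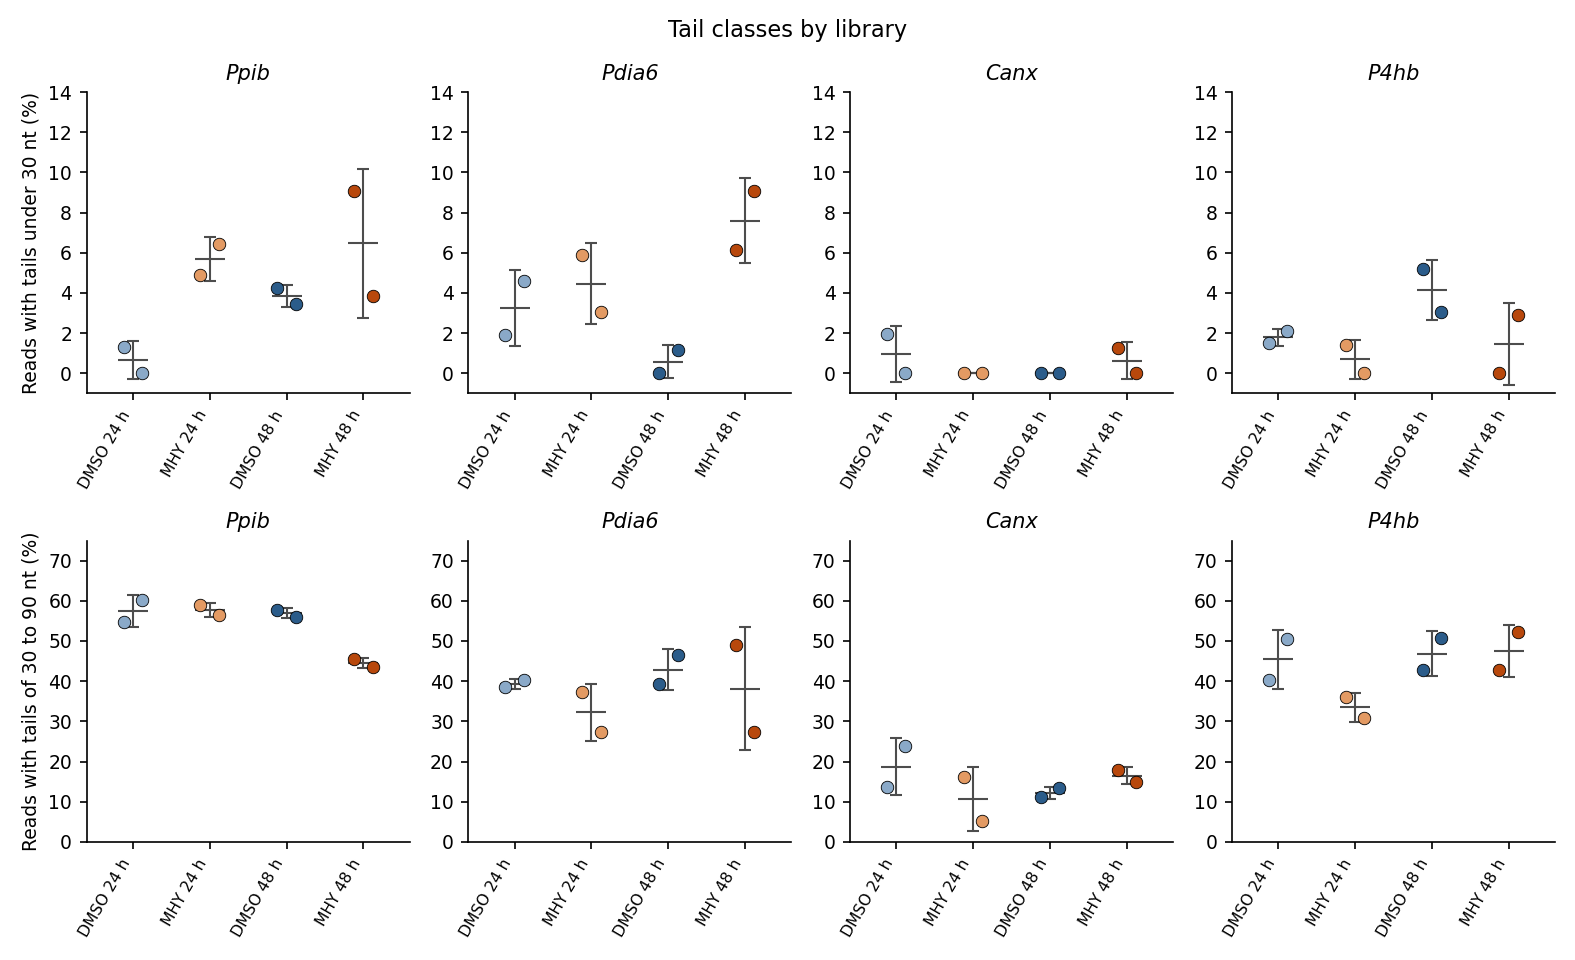
Share of reads (%) with tails under 30 nt (upper row) and of 30 to 90 nt (lower row) in each library, for Ppib, Pdia6, Canx and P4hb, with the mean ± SD of the 2 libraries of a group. Both MHY libraries of Ppib at 48 h (45.5% and 43.6%) lie below its other 6 libraries in the lower row, and both MHY libraries of Pdia6 at 48 h (6.12% and 9.09%) above its DMSO libraries of 48 h in the upper row.

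Where the molecules ended was read from the alignments, placed on GENCODE vM21 transcripts of the same assembly (mm10, GRCm38). The study's methods name an earlier GENCODE release for the alignment, and transcripts were matched by ID with version. The 3′ ends are shown since a tail is measured from them and they differ from the annotated ends for several genes. Each line gives the last 30 bases before the leading read end, 5′ to 3′ on the strand of the gene, with the poly(A) signal (AATAAA or ATTAAA) in capitals.
Ppib: accaatgctgatcAATAAAgtgggtttttt
Calr: aaaatttctATTAAAttaagttttgtgtct
Hspa5: taagtgacaccAATAAAtgtttgttattta
Canx, main end: cacatAATAAAgcagtcctgttcaaaaaaa
Canx, distal end: tgaAATAAAcagttactagcaagaaatgaa
Canx, proximal end: tATTAAAgcattcatgtgtctgtcctaaaa

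Ppib molecules ended at chr9:66066619 (plus strand, printed bases from 66066590), in the 3′ UTR of the last of 5 exons and 4 nt before the annotated end. This held for 95.3% of the reads of its leading transcript. Reads within 25 nt of an end were counted at it, for Calr and Hspa5 as well. Calr ended at chr8:84842093 (minus strand, printed bases to 84842122), 243 nt before the annotated end of a 2184-nt transcript, in 97.0% of reads. Hspa5 ended at chr2:34776456 (plus strand, printed bases from 34776427), in 88.9% of the reads assigned to its longer transcript and 90.05% of those assigned to its shorter one. This end lay 1091 nt and 75 nt before the annotated ends of these transcripts, so that both names stand for molecules with the same 3′ end. Within 60 nt of their leading ends, 9 of the 10 genes had either signal, and Pdia4 had neither.

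Canx reads were spread over 3 ends, all in the 3′ UTR of its last exon. The main end, chr11:50294956 (minus strand, printed bases to 50294985), held 58.4% of its 478 reads. The distal end, chr11:50294467 (printed bases to 50294496), 489 nt farther, held 31.2%. The proximal end, chr11:50295780 (printed bases to 50295809), 824 nt nearer to the coding region, held 6.90%. Reads within 40 nt of an end were counted at it. The distal share was 28.8% under DMSO and 34.2% under MHY at 24 h, and 32.4% and 30.9% at 48 h (means of 2 libraries), and it went down to 21.8% in a single library. The mean of the library medians of tail length was 133 nt at the main end and 145 nt at the distal end. The distal end was longer in 6 of 8 libraries, by 11.97 ± 14.3 nt (SD, n = 8), which is within the spread. Both ends thus carried tails longer than the medians of the other 7 genes that could be compared.

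**Figure D5:**
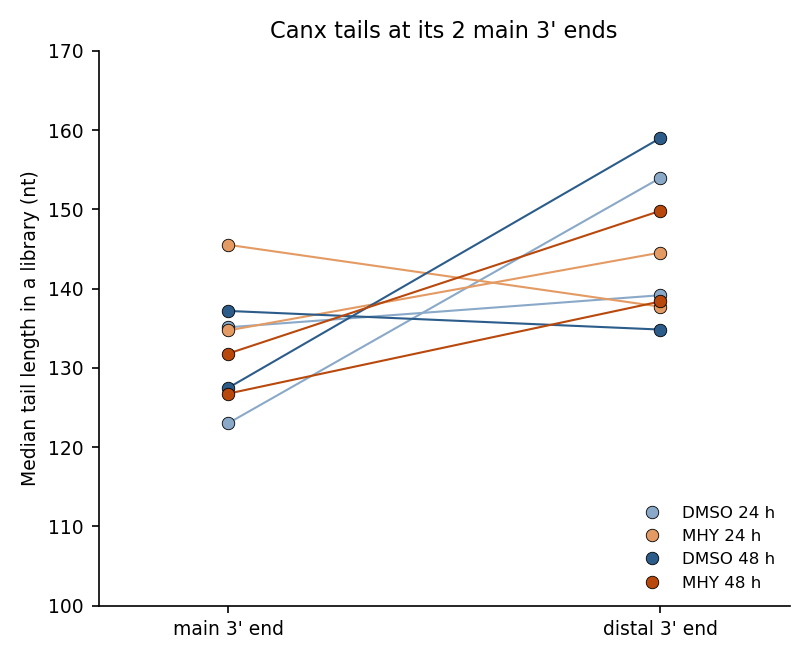
Median tail length (nt, vertical axis from 100 to 170) of Canx reads at the main and the distal 3′ end, with 1 line per library coloured by group. The line goes up in 6 of 8 libraries and down in 2.

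Reads are sequenced from the 3′ end, and how far they reached 5′ differed between genes. Of the reads on the leading transcript of Ppib (892 nt long), 92.3% started within its first 200 nt. For Pdia4 this was 71.3%, for Pdia6 66.7%, for Hspa5 63.9%, for Pdia3 59.4% and for Hsp90b1 52.3%. It was 27.3% for Calr, 23.1% for Canx, 5.13% for Hyou1 and 3.83% for P4hb. The P4hb reads had their leading start at position 394 of the transcript, still in its 5′ UTR (236 of 626 reads), so that the annotated start lay upstream of most read starts.

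Calr was unusual in a pile of starts inside its coding region. There were 148 reads starting around position 1117 of the transcript (chr8:84843016, exon 8 of 9) and 83 around position 1151, against 167 around position 80, near the annotated start. Counts cover 25 nt to either side, and a read counted at position 1117 was not counted again at 1151. For Hspa5 the leading start was at chr2:34772103 under both transcript names (254 of 407 and 72 of 221 reads).

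The gene counts also hold reads of low mapping quality, for which the aligner had another placement of similar score. A mapping quality of at least 10 was reached by 0.209% of the reads of Canx, 0% of those of Hyou1 and 43.2% of those of Hspa5, each of which was read on a pair of protein-coding transcripts, and by 94.3% to 100% of those of the other 7 genes.

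Genes were last ranked by how closely their log2 RPM followed the mean of the 8 abundant chaperones over the 8 libraries, as a description. The closest of 1941 other genes was Ptma (Pearson's r = 0.946), which encodes prothymosin alpha. Mrfap1 (0.910), Bsg (0.908), which encodes the membrane glycoprotein basigin, Tomm40 (0.882), the channel of the outer mitochondrial membrane, and Rangrf (0.880) came next. Between pairs of the 8 chaperones r was above 0 for 24 of 28 pairs, with a median of 0.35 and a range from -0.58 to 0.85. All these values share the depth and composition of the same libraries.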

How the data were processed

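The deposited table lists 1 alignment per line of direct RNA reads from 8 P19 libraries. By the methods of the study, base calling was by Guppy, alignment to mouse GENCODE transcripts (mm10) by minimap2 (version 2.20 in the submitters' processing notes), tail estimates came from Nanopolish and library assignment from Deeplexicon. The deposited columns used hold the tail length in nt, not normalized, the aligner's mapping quality (a score), the confidence of the barcode (a fraction) and positions in nt along the transcript. Counts were made here by counting lines.

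Of 2439710 alignments, those tagged PASS (83.1%) on mRNAs were used (86.2% of those of the 10 genes). A read was counted once per transcript, and 66955 mitochondrial and 12169 pseudogene reads were set aside. Depth was 178369 to 316546 reads per library. Groups came from the series labels. The members and the gene lists were chosen with earlier results of these data known. All 10 members are named. Genes of the other lists are named where they passed an adjusted p of 0.05.

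Genes reaching 10 reads in 2 or more libraries were fitted with limma voom (limma 3.58.1, R 4.3.3) after median-of-ratios scaling, with all 8 libraries in 1 fit and 4 group means. Log2 median tails and log2 odds of tail classes (0.5 read added to each side) of genes with at least 10 reads in each library were fitted with limma, weighted by reads. P-values were adjusted by Benjamini-Hochberg over all genes of a comparison. The study's methods call the 2 samples of a group biological replicates, multiplexed by barcode. P-values test differences of group means against the spread within groups, pooled over the 4 groups and moderated across genes. The scripts were tested on simulated data. Tables were made with Python 3.11.15 and pandas 2.3.3. The order of tails, the 3′ and 5′ ends and the runs were examined after values had been seen, and carry no test. Alternatives covered the scaling, filters, mapping quality, barcode confidence, class bounds, weights, library numbers as a block, and each library left out.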

Additional observations from a re-analysis of the deposited data

Results flagged for a closer look

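Pdia3 lay above both DMSO libraries in both MHY libraries at 24 h (284 and 297 against 277 and 283 reads per 1000000 mRNA reads) and below both at 48 h (228 and 201 against 276 and 303). It was singled out because both MHY libraries lay on one side of DMSO at 24 h and on the other at 48 h. The difference at 24 h was near 0 (0.02 ± 0.21), and in 1 of the 3 runs of 24 h it lay the other way (-0.28). The difference between both effects was -0.559 ± 0.292 on the log2 scale (SE, limma voom, unadjusted p = 0.0558, adjusted p = 0.774), which did not pass the threshold. With groups of 2, no library could be tested for lying far from the rest of its own group.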

How the results depend on the processing

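With 2 libraries per group, a library could decide a value, and fits that left out 1 library took its group's spread from the other groups. No chaperone was called in any comparison by the fits as reported. At 48 h, 1 of 8 tested (Pdia6, log2 difference -0.76, adjusted p = 0.0376) was called with a mapping quality of at least 10, which left fewer genes and reads, and 0 to 2 were called when 1 library was left out. The 2 were Pdia6 and P4hb without library 25 of MHY 48 h. Every other count of chaperones called stayed at 0, limma trend on the logarithms included. Of the values of single chaperones under the alternatives, 1507 moved by less than 1 SE, 79 moved farther and 3 passed the threshold. Over all genes the number called for reads at 48 h was 71, with 34 to 147 under other settings and 17 to 141 with 1 library left out. For reads at 24 h it was 2, with 1 to 4 and 0 to 3, for the interaction 14, with 5 to 29 and 0 to 30, and between the DMSO groups 0, with 0 to 8 and 0 to 2. For median tails at 48 h it was 11, with 0 to 28 and 0 to 44, for tails under 30 nt at 48 h 7, with 0 to 16 and 0 to 10, and for 30 to 90 nt at 48 h 5, with 0 to 8 and 0 to 36. The cause was not tested. Library numbers are shared by the groups of a time. Over 1949 genes, libraries of 1 number deviated together weakly for reads at 48 h (r of 0.139) and less at 24 h (0.0186). For tails r was 0.0336 at 24 h and 0.0508 at 48 h. With the replicate block, the call counts of chaperones were 0, and at 48 h Pdia6 was at -0.66 (adjusted p = 0.0681), P4hb at -0.54 (adjusted p = 0.0963), and 92 genes were called. The block could not be estimated between the DMSO groups, and fits of 1 time alone were not run for comparisons across times. Depth limits Pdia4 and Hyou1, with 3 to 13 reads per library, and tails under 30 nt, with 0 to 9 reads per gene and library.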
